A study of Mus musculus with 10 samples.

Results

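The alarmins IL-33 and TSLP, with the receptor chains through which IL-33 is sensed, were examined in cultured mouse ASPCs, the adipose stem and precursor cells of fat. The group held the 4 genes Il33, Tslp, Il1rl1 and Il1rap. They were taken by symbol from a table of 25229 rows, of which 14251 had enough counts to be tested, and all 4 genes were among those. They were selected on their CPM in these same libraries and on its difference between DMSO and FICZ, both known beforehand, so that difference is described for them without a test.

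ASPCs (CD45-CD31-Pdgfra+) were sorted from perigonadal white adipose tissue (gWAT) of WT mice, grown to confluence and lysed for RNA after 6 hr with FICZ or with DMSO alone. FICZ, a tryptophan derivative that activates the aryl hydrocarbon receptor (AHR), was used at 100 nM, and DMSO was its vehicle. There were 5 libraries per treatment, numbered 1 to 5 in both, and the sources used here give neither the age of the mice nor whether animals were pooled. Libraries of the same number deviated together from their group means, with correlations across genes between 0.154 and 0.317, so same-numbered libraries are also compared as pairs. What the number stands for is not given in the sources used here, and p-values measure the spread between these libraries, which may be technical.

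IL-33 is a cytokine of the IL-1 family that is kept in the nucleus of stromal and epithelial cells and is set free when cells are damaged. It binds ST2, the product of Il1rl1, which pairs with the accessory chain IL1RAP and signals through MyD88 to NF-kB, and in visceral fat this signal sustains group 2 innate lymphoid cells and regulatory T cells. TSLP acts on the same kinds of immune cells through a different receptor, CRLF2 paired with the IL-7 receptor chain, and signals through JAK1, JAK2 and STAT5.

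Total counts per library ranged from 38328611 to 50210111, and 3 counts, taken as the smallest detectable level, correspond to between 0.0603 and 0.0787 CPM (counts scaled to a common library size, with TMM factors). All 20 library pairs within a treatment exceeded sampling noise (lowest chi-square per degree of freedom 16.4). The treatment label was checked on AHR target genes. Cyp1a1, the enzyme most closely tied to AHR activity, rose from 26.8 ± 12.8 to 255 ± 92.4 CPM (SD, n = 5 per group; log2 fold change 3.25, adjusted p = 0.0189, edgeR quasi-likelihood test), and Ahrr, Tiparp and Cyp1b1 were higher in FICZ in 5 of 5 pairs, as were 4.32% of all genes tested. In the same test the adjusted p was 0.00324 for Ahrr, 0.0335 for Tiparp and 0.147 for Cyp1b1. With the replicate number as a block it was 0.00506, 0.0509 and 0.0757 in that order. The cells carried Pdgfra, the positive marker of their sort, at 1319.7 ± 88.3 CPM in DMSO. The genes of the excluded markers, Ptprc (CD45) and Pecam1 (CD31), were at 0.745 ± 0.614 and 1.48 ± 0.122 CPM in DMSO. The 11 ASPC markers summed to between 5885 and 8825 CPM over all libraries.

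Il33 averaged 84.1 ± 13.5 CPM with DMSO and 66.1 ± 11.7 CPM with FICZ (SD, n = 5 each). On the GRCm38 assembly it lies on chr19:29925114-29960718, plus strand (ENSMUSG00000024810.16), with 2886 exonic bases in the GENCODE M21 annotation and 5 transcripts, all of them coding. In DMSO the values from replicate 1 to 5 were 95.9, 66.2, 73.3, 90.2 and 94.6 CPM, and in FICZ they were 84.2, 54.2, 60.9, 60.9 and 70.4 CPM. The ranges overlapped, with 3 FICZ libraries below every DMSO library and none above. The ranges of the other 3 genes overlapped too, while 0.47% of all genes tested had groups that did not.

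Within each pair, Il33 was lower with FICZ. The FICZ library was lower by 12.2% in pair 1, 18.2% in pair 2, 16.9% in pair 3, 32.5% in pair 4 and 25.6% in pair 5. Of all genes tested, 2.81% were lower in all 5 pairs. The fitted log2 fold change of Il33 was -0.35 (SE 0.14), a level 0.787-fold that of DMSO, and it stayed at -0.35 with a smaller standard error (SE 0.07) when the replicate number was included as a block. The largest pair difference was in pair 4 and the smallest in pair 1, where both libraries held the highest Il33 level of their treatment.

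**Figure D1:**
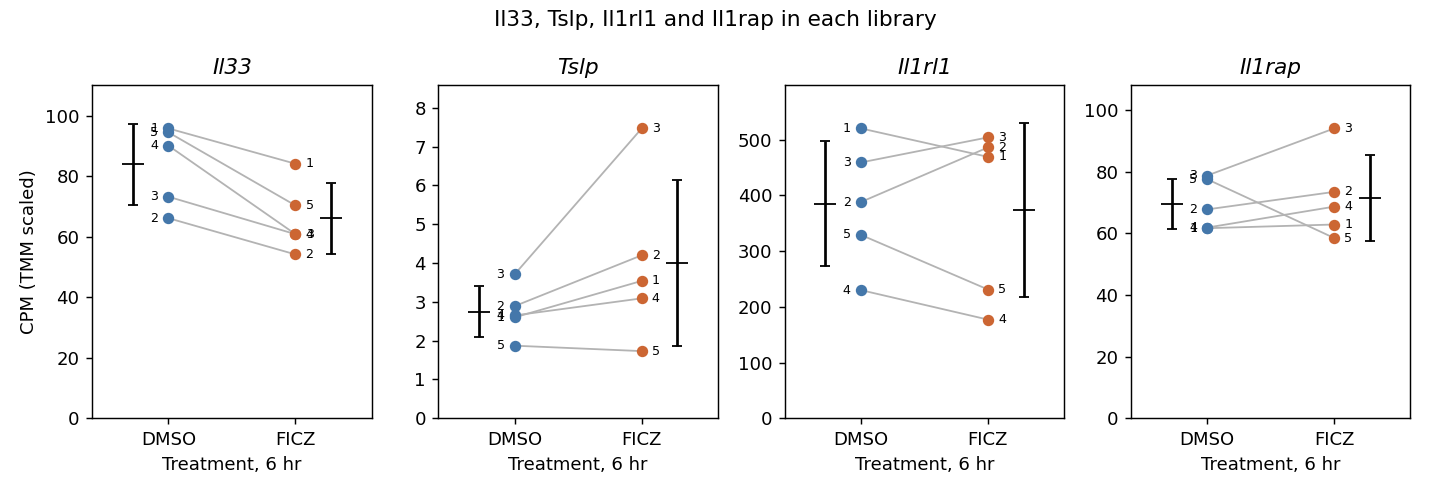
Levels of Il33, Tslp, Il1rl1 and Il1rap in each library, in CPM on linear axes that start at 0, with DMSO in blue, FICZ in orange, lines joining libraries of the same replicate number, and black bars giving mean and SD. All 5 Il33 lines slope downward, 4 of 5 Tslp lines slope upward with replicate 3 highest at 7.47 CPM, and the Il1rl1 lines cross.

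Tslp was a low-abundance transcript, at 2.74 ± 0.662 CPM in DMSO and 4.0 ± 2.14 CPM in FICZ. It is annotated on chr18:32815383-32819797, plus strand (ENSMUSG00000024379.4), with 1331 exonic bases and 2 transcripts, of which 1 is coding. In DMSO, replicates 1 to 5 held 2.6, 2.89, 3.71, 2.65 and 1.87 CPM, from 91 to 162 counts. In FICZ they held 3.54, 4.2, 7.47, 3.09 and 1.73 CPM, from 75 to 296 counts. Replicate 3 was the highest and replicate 5 the lowest in both treatments. There were 2 FICZ libraries above every DMSO library and 1 below.

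Tslp was higher with FICZ in 4 of 5 pairs, a pattern that 21.7% of all genes tested met or exceeded. The FICZ level was 1.36, 1.45, 2.01, 1.17 and 0.928 times the DMSO level in pairs 1 to 5. The fitted log2 fold change was 0.54 (SE 0.33), and 0.43 (SE 0.17) with the replicate block. The value rested in large part on FICZ replicate 3. Without that library the log2 fold change was 0.20, and without FICZ replicate 5 it was 0.72.

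Il1rl1, which encodes ST2, was the most abundant of the 4 transcripts and ranked 396 among the 14251 genes tested. The gene lies on chr1:40429570-40465415, plus strand (ENSMUSG00000026069.15), with 6894 exonic bases and 5 coding transcripts. Alternative transcripts of Il1rl1 encode a membrane receptor and a soluble form that binds IL-33 without signalling, and counts per gene do not separate them. DMSO replicates 1 to 5 held 520.1, 388, 459, 229.9 and 329 CPM, and FICZ replicates held 469, 486, 504, 177 and 231 CPM. Replicates 4 and 5 were the lowest in both treatments, and the groups overlapped over most of their range. Means were 385 ± 113 CPM in DMSO and 374 ± 156 CPM in FICZ.

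The pairs of Il1rl1 went both ways, with 2 higher and 3 lower in FICZ. The log2 differences were -0.15, 0.33, 0.14, -0.38 and -0.51 in pairs 1 to 5, and the fitted log2 fold change was -0.04 (SE 0.31), or -0.11 (SE 0.13) with the block. Leaving out 1 library at a time moved it between -0.18 and 0.13.

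Il1rap, the accessory chain shared by the receptors for IL-33, IL-1 and IL-36, was close to equal in the treatments, at 69.6 ± 8.28 CPM in DMSO and 71.5 ± 13.8 CPM in FICZ. It lies on chr16:26581704-26730117, plus strand (ENSMUSG00000022514.14), with 11360 exonic bases and 7 transcripts, of which 4 are coding. The predicted gene Gm20319 on the opposite strand overlaps 552 of those bases, and since the strand setting of the counting is not given, reads there cannot be assigned to either. Replicates 1 to 5 held 61.7, 67.8, 78.8, 61.9 and 77.6 CPM in DMSO and 62.9, 73.5, 94.1, 68.7 and 58.5 CPM in FICZ. FICZ replicate 3 was the highest of all libraries and FICZ replicate 5 the lowest. The pair differences were 0.03, 0.12, 0.25, 0.15 and -0.41 on the log2 scale, and the fitted log2 fold change was 0.04 (SE 0.13), or 0.03 (SE 0.10) with the block.

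As background, the share of all genes tested with an adjusted p of 0.05 or less was 0.0211% in edgeR without the block, 0.0561% with the block, 0.0845% in DESeq2 and 0.14% in DESeq2 with the block, and no such call is given for the 4 genes. Their fitted values were recomputed under 27 alternatives as a description. The direction was the same in all 27 for Il33 and for Tslp, and in 22 of 27 for Il1rl1 and for Il1rap. All alternatives reuse the same 10 libraries or most of them, so these counts are not independent support for a direction. Across these alternatives the log2 fold change of Il33 ranged from -0.45 to -0.19 and that of Tslp from 0.20 to 0.72.

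**Figure D2:**
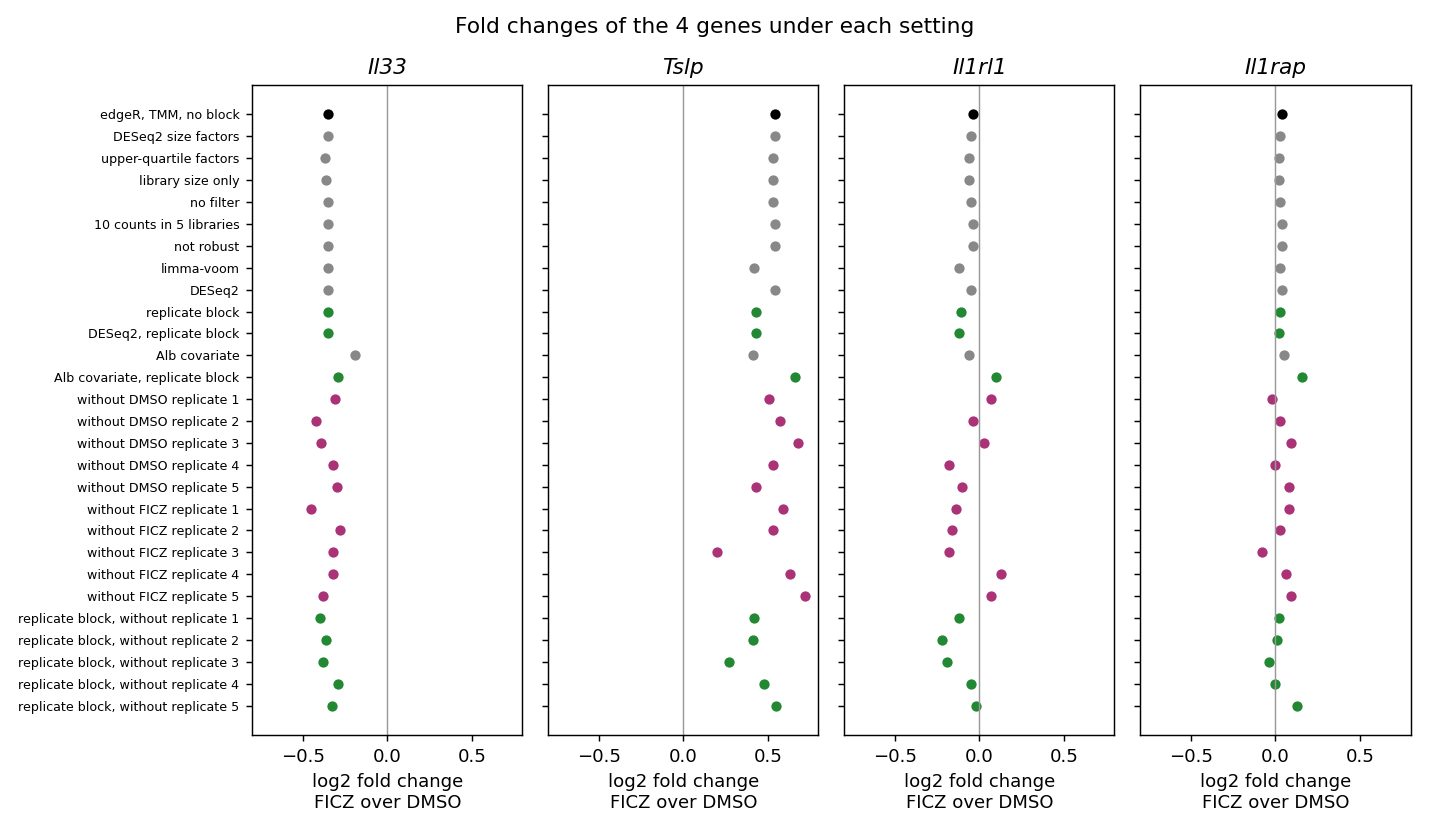
Fitted log2 fold change of each of the 4 genes (x axis, FICZ over DMSO) under each of 28 settings (rows), with the fit without the block in black, other fits of all libraries in grey, fits with the replicate block in green and fits without 1 library in purple. Il33 stays left of 0 and Tslp right of 0 in every row, Il33 lies closest to 0 with the Alb covariate (-0.19), and Tslp lies closest to 0 without FICZ replicate 3 (0.20).

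The 4 genes differed in how much they varied between libraries of the same treatment. The within-group SD of log2 CPM was 0.24 for Il33, 0.59 for Tslp, 0.60 for Il1rl1 and 0.22 for Il1rap. Of all genes tested, 89.9% had a smaller SD than Il1rl1 and 89.5% a smaller SD than Tslp, against 55.2% for Il33 and 50% for Il1rap. Most of that spread lay between replicate numbers, which took 90.5% of the within-group sum of squares for Il33, 87.9% for Tslp, 91.5% for Il1rl1 and 66.4% for Il1rap, where the median gene had 64.2%.

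Levels of different genes were set side by side as CPM per kilobase of exon. In every library the order was Il1rl1, Il33, Il1rap and then Tslp. In DMSO the means were 55.9 ± 16.4 for Il1rl1, 29.1 ± 4.66 for Il33, 6.12 ± 0.729 for Il1rap and 2.06 ± 0.498 CPM per kb for Tslp. In FICZ they were 54.2 ± 22.7, 22.9 ± 4.04, 6.3 ± 1.22 and 3.01 ± 1.6 CPM per kb in the same order. Within a library, Il1rl1 exceeded Il33 by 1.07 to 3.76 times, and Il33 exceeded Tslp by 3.76 to 23.4 times. The median ratio of Il33 to Tslp was 15.7 in DMSO and 9.1 in FICZ.

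Among the 15 tested ligands and receptors of the IL-1 family and the TSLP axis, Il1rl1 had the highest mean level per kb in DMSO. Its neighbour was Il1r1, the signalling receptor for IL-1, at 35.9 ± 6.79 CPM per kb, and the ranges of both over all libraries overlapped. Il33 came next, and its range (18.8 to 33.2 CPM per kb) touched those of Il1r1 above and of Il1rl2, the IL-36 receptor, below at 16.2 ± 2.1 CPM per kb in DMSO. Crlf2, the TSLP-binding chain, followed at 9.37 ± 2.34 CPM per kb and overlapped Il1rap. Tslp overlapped Il18, another IL-1 family cytokine, at 2.05 ± 1.04 CPM per kb. Il7r, which completes the TSLP receptor, had between 0 and 4 counts per library, against 384 to 741 for Crlf2.

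**Figure D3:**
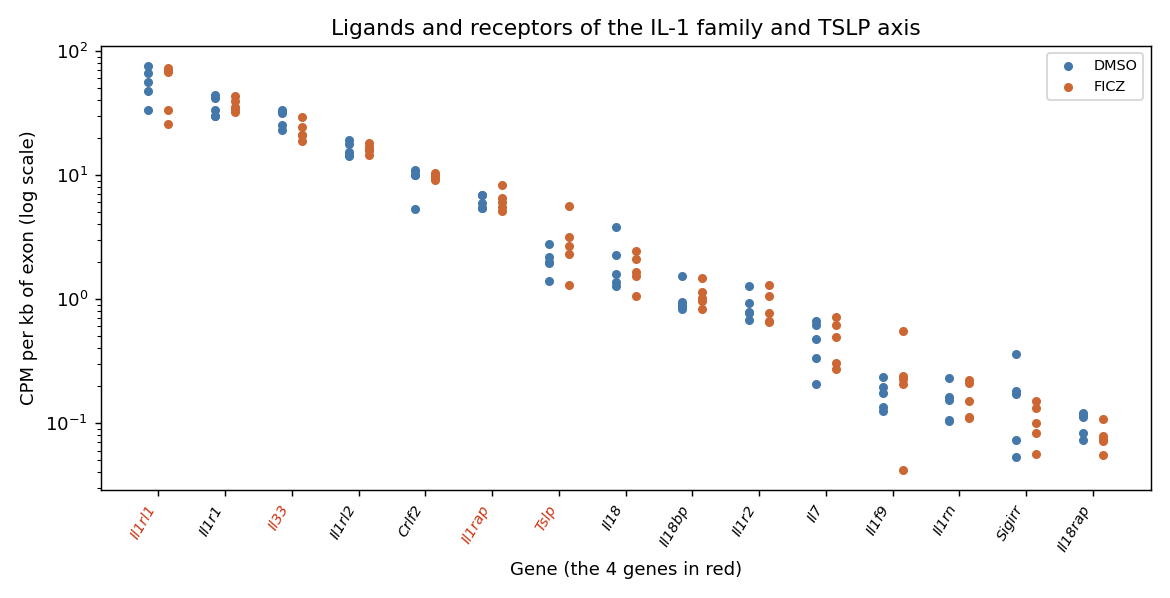
Level of 15 ligands and receptors in each library, as CPM per kb of exon on a log axis, ordered by mean, with DMSO in blue, FICZ in orange and the names of Il33, Tslp, Il1rl1 and Il1rap in red. Il1rl1 and Il33 sit among the highest with Il1r1, and Tslp sits lower, between 1.3 and 5.61 CPM per kb.

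The windows around 5 annotated start sites of Il33, Il1rl1 and Il1rap were searched for the letters of the AHR core element, GCGTG or its reverse complement CACGC. The Tslp window was not analysed here. Sequences are from RefSeq on GRCm38.p6 and run from 250 bases before to 50 bases after each start. The upstream Il33 window is shown because Il33 was lower in every pair, the downstream Il1rl1 window because it was the only Il1rl1 window with a core, and the Il1rap window because it held the most cores. Cores are in capitals.
Il33, chr19:29924863-29925162, plus strand: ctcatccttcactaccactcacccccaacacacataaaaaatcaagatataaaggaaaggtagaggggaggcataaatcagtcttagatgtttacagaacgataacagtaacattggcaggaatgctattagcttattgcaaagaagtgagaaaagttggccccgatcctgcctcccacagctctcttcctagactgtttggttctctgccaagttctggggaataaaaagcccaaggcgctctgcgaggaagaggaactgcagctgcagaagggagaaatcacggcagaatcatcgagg
Il1rl1 downstream start, chr1:40439379-40439678, plus strand: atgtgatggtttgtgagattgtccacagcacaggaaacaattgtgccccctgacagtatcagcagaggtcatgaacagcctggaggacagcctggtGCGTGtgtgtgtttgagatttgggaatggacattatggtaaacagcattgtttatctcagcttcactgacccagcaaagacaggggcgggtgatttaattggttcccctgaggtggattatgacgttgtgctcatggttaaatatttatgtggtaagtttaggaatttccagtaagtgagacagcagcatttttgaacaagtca
Il1rap, chr16:26581455-26581754, plus strand: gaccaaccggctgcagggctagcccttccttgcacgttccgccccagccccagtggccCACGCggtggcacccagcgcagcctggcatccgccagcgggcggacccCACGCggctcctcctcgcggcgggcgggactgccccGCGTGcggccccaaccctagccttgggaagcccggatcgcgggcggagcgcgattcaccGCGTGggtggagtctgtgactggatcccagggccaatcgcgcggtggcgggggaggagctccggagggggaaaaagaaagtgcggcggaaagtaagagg
The core letters occurred 4 times in the Il1rap window, at -192, -144, -108 and -49 from the start, and once in the downstream Il1rl1 window, at -154. They were in neither of the 2 Il33 windows nor in the upstream Il1rl1 window. Sequence outside the windows was not searched, so the absence does not extend to it. Of 32851 windows of this length over 27025 genes, 32.4% held the core at least once. The Il1rap window had a GC content of 72%, against 46.3% for the upstream Il33 window and 44.7% for the downstream Il1rl1 window. The AP-1 element TGAGTCA, searched on both strands, was in none of the 5 windows, so none overlapped a core, and in 5.2% of all windows.

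Hepatocyte transcripts were present in these cultures, and their level was lower in FICZ together with Il33 in pairs 1, 4 and 5 but not in pairs 2 and 3. All 12 hepatocyte markers were detected, and they summed to 3504, 1287, 1379.6, 3184 and 8584 CPM in DMSO replicates 1 to 5 and to 1912, 1649.8, 1835, 1259 and 1692 CPM in FICZ. None of the 12 passed the threshold in edgeR, where 12 had an unadjusted p of 0.05 or less without the block and 0 with it, and their median log2 fold change was -1.12, or -0.76 with the block. The DMSO libraries with the most, replicates 1, 4 and 5, were also those with the most Il33. Pairs 2 and 3 had more hepatocyte RNA in FICZ than in DMSO, and in those pairs Il33 was lower in FICZ by 18.2% and 16.9%. With the log2 CPM of Alb, the albumin transcript, as a covariate the log2 fold change of Il33 was -0.19, and with Alb and the replicate block it was -0.29. Without DMSO replicate 5, which had the most Alb (4782 CPM), it was -0.30. Alb itself had a log2 fold change of -1.09 (SE 0.45) without the block, so these fits cannot fully separate Alb from treatment. The part of hepatocyte RNA in the Il33 difference was not tested.

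**Figure D4:**
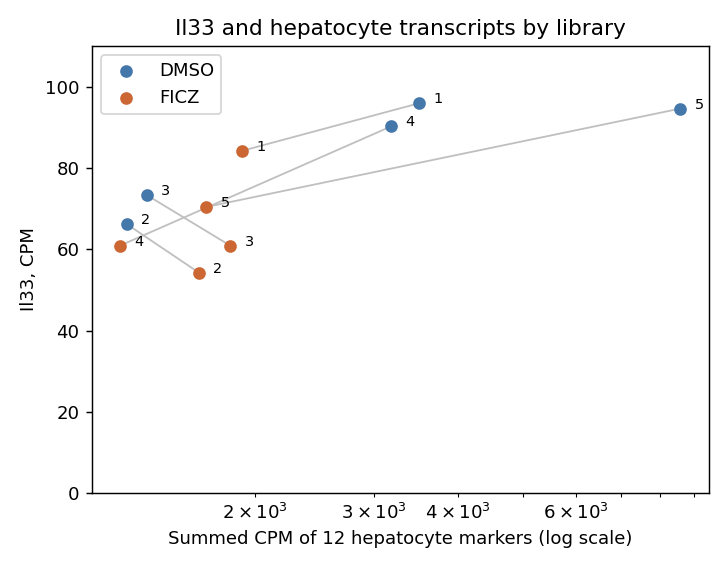
Il33 in CPM (y axis, linear from 0) against the summed CPM of 12 hepatocyte markers (x axis, log scale) in the 10 libraries, with DMSO in blue, FICZ in orange, the replicate number beside each point and lines joining pairs. In pairs 1, 4 and 5 both measures are lower in FICZ, and in pairs 2 and 3 Il33 is lower while the hepatocyte sum is higher.

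Markers of other cells had lower sums than the hepatocyte markers. The 10 macrophage markers summed to between 25.3 and 56.4 CPM with DMSO and between 24.6 and 36.9 CPM with FICZ. The 8 endothelial markers summed to between 88.4 and 102 CPM in DMSO and between 88.6 and 95.7 CPM in FICZ. Most of the endothelial sum was Tek, at 64.5 ± 9.3 CPM with DMSO and 65.5 ± 7.28 CPM with FICZ. Of 7 endothelial markers tested, 6 had a lower mean in FICZ. Their median log2 fold change was -0.25, or -0.27 with the block, and none passed the threshold. Of 9 macrophage markers tested, 8 had a lower mean in FICZ, with a median log2 fold change of -0.94, or -0.66 with the block. Csf1r, the most abundant of them, had a log2 fold change of 0.07 (SE 0.15). Over all genes tested, 6585 of 14251 had a lower mean in FICZ. The complement genes C1qa and C1qb had log2 fold changes of -1.09 (SE 0.47) and -1.36 (SE 0.55), and neither passed the threshold. Like the hepatocyte sum and unlike Il33, the macrophage sum was lower in FICZ in pairs 1, 4 and 5 and higher in pairs 2 and 3. The mesothelial markers, 10 of 11 of them in the table, summed to between 74.4 and 137 CPM in DMSO and between 77 and 93.4 CPM in FICZ, with the highest sum in DMSO replicate 5. Most of that was Wt1, at 68.1 ± 9.58 CPM with DMSO and 66.2 ± 7.05 CPM with FICZ. Of 10 mesothelial markers tested, 5 had a higher mean in FICZ and 5 a lower one. Their median log2 fold change was -0.01, or 0.02 with the block. The highest was Bnc1, at 0.36 (SE 0.32). The lowest were the keratins Krt8 and Krt18, which hepatocytes also express, at -1.15 (SE 0.43) and -1.23 (SE 0.47), and neither passed the threshold. Markers of ILC2s, regulatory T cells and mast cells summed to between 9 and 28.2 CPM in DMSO and between 9.99 and 34.6 CPM in FICZ. Most of that was Kit, while Gata3 had 15 to 87 counts per library and Icos 3 to 17. Fcer1a was at 0 in every library, and Foxp3, Cd3e, Klrg1, Cpa3 and Ms4a2 had at most 5 counts in any library. In RNA from whole cultures, fewer cells of a type and less RNA per cell cannot be told apart, and the part of macrophage, mesothelial, endothelial and lymphoid markers in the levels of the 4 genes was not tested.

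Beyond the 4 genes, 79 genes in 7 lists around IL-33 and TSLP were examined, of which 55 were tested. None passed the threshold in edgeR, with or without the block, or in any other of the 28 settings, DESeq2 included. At an unadjusted p of 0.05, 2 of 55 passed (3.64%), beside 4.82% of all genes tested, and 2 of 55 also with the block, beside 4.65% of all genes. The median log2 fold change was 0.04 over the 55 genes and 0.01 over all genes.

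**Figure D5:**
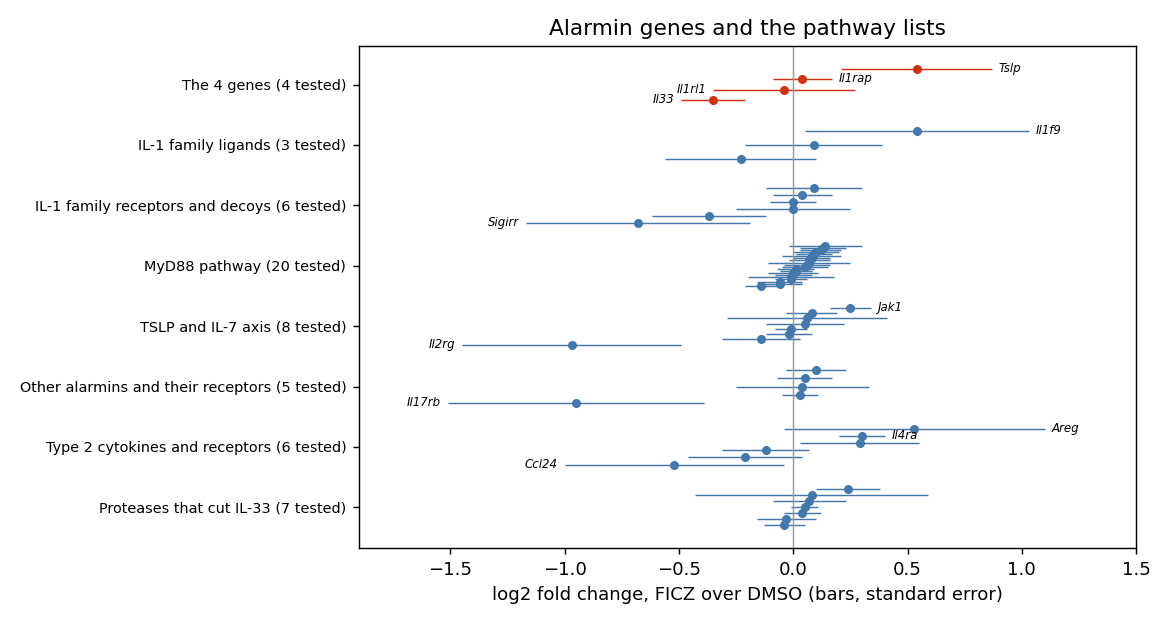
Log2 fold change, FICZ over DMSO, with standard error bars (x axis) for Il33, Tslp, Il1rl1 and Il1rap in red and for the 55 tested genes of 7 lists in blue (rows). The MyD88 genes lie between -0.14 and 0.14. Low-abundance genes have wide bars, and some of them, such as Il2rg (-0.97) and Il17rb (-0.95), lie farther from 0, while others, such as Prtn3 (0.08), lie near it.

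Il33 had the highest level per kb of the tested ligands of its family. Of 9 other IL-1 family ligands 3 were tested, with a median log2 fold change of 0.09. Il1rn, the IL-1 receptor antagonist, had a log2 fold change of 0.09 (SE 0.30), Il18 of -0.23 (SE 0.33), and the IL-36 ligand Il1f9, with 3 to 36 counts, of 0.54 (SE 0.49). Il1b had at most 20 counts and Il1a at most 9 in any library, and Il1f5, Il1f6 and Il1f8 were at 0 in all libraries. Of the other alarmins, Hmgb1, a nuclear protein that is also released from damaged cells, was at 216 ± 30.7 CPM with DMSO and 231 ± 35.7 CPM with FICZ, and Il25 had at most 9 counts.

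Of 9 receptors and decoys of the IL-1 family 6 were tested, with a median log2 fold change of 0. Il1r1 was at 229 ± 43.2 CPM with DMSO and 234 ± 29.4 CPM with FICZ, and Il1rl2 was at 110.3 CPM in both. Il18bp, which neutralises IL-18, had a log2 fold change of 0.09 (SE 0.21). The alarmin receptors Il17ra, a chain of the IL-25 receptor, and Tlr4 had log2 fold changes of 0.03 (SE 0.08) and 0.05 (SE 0.12).

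All 20 genes of the MyD88 list, which carry the signal of ST2 and IL1RAP to NF-kB and p38, were tested. Means were higher in FICZ for 14 and lower for 6, and the median log2 fold change was 0.06. Tollip, an adaptor that restrains this signal, and the kinases Irak1 and Map3k7 were the most abundant, with log2 fold changes of 0.00 (SE 0.08), -0.01 (SE 0.07) and 0.08 (SE 0.08).

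The TSLP and IL-7 list had 8 of 9 genes tested and a median log2 fold change of 0.02. Jak1, a kinase of the TSLP receptor and of many other cytokine receptors, was at 589 ± 42.4 CPM with DMSO and 699 ± 65.3 CPM with FICZ (n = 5 each) and was higher in 5 of 5 pairs, as were 4.32% of all genes tested. Its log2 fold change was 0.25 (SE 0.09), with an unadjusted p of 0.0163 and an adjusted p of 0.999 in edgeR's quasi-likelihood test. Crlf2 was at 14.0 ± 3.49 CPM with DMSO and 14.5 ± 0.692 CPM with FICZ, and the log2 fold changes of Jak2 and Stat5b were 0.08 (SE 0.11) and -0.01 (SE 0.07).

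Of 13 genes for type 2 cytokines and receptors, several of which immune cells express in answer to IL-33 and TSLP, 6 were tested and the median log2 fold change was 0.08. Il4, Il13 and Csf2 were at 0 in all libraries and Il5 had at most 1 count. Il4ra, the receptor chain for IL-4 and IL-13, was at 92.5 ± 13.2 CPM with DMSO and 114 ± 4.29 CPM with FICZ (n = 5 each) and was higher in 5 of 5 pairs. Its log2 fold change was 0.30 (SE 0.10), with an unadjusted p of 0.00904 and an adjusted p of 0.999 in edgeR's quasi-likelihood test. Ccl11, the eosinophil chemokine eotaxin, had a log2 fold change of -0.21 (SE 0.25), and Il13ra1, the partner of Il4ra, of -0.12 (SE 0.19).

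Proteases that can cut the IL-33 protein were also present. Of 11 in the list 7 were tested, with a median log2 fold change of 0.05. The calpain subunits were the most abundant, with Capn2 at 665 ± 150.1 CPM with DMSO and 698 ± 77.1 CPM with FICZ, and with log2 fold changes of 0.07 (SE 0.16) for Capn2, -0.04 (SE 0.09) for Capns1 and 0.05 (SE 0.06) for Capn1. Of the mast cell and neutrophil proteases, Ctsg was at 0 in all libraries, Cma1 had at most 1 count and Elane at most 4, while the neutrophil protease Prtn3 had 7 to 41 counts and a log2 fold change of 0.08 (SE 0.51).

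The pattern of each gene over the 10 libraries, after each treatment mean was subtracted, was compared with that of all other genes tested. The libraries form 5 numbered pairs, so the points are not independent, and correlations are given as a description. Lars2, a mitochondrial leucyl-tRNA synthetase, followed Il33 most closely (Pearson r = 0.99 over 10 libraries). Its r was the same without the 2 libraries farthest from the median. Uckl1 and Rmrp came next (r = 0.95 each), though Rmrp had just 1 to 32 counts per library. Only 0.0632% of genes tested had an r above 0.9 with Il33, against 0.667% for Tslp, 0.653% for Il1rl1 and 0.358% for Il1rap. Tslp was followed most closely by Tmem204 (r = 0.98), the clock repressor Cry1 and the nuclear exporter Xpo5 (r = 0.96 each). Il1rl1 was followed by Mecr (r = 0.99), Gbe1 and Shroom2 (r = 0.97 each), and Il1rap by Ttc19 (r = 0.98), Mcam and the thrombin receptor F2r (r = 0.97 each). Without the 2 farthest libraries, r was 0.95 for Uckl1 and 0.94 for Rmrp. For the genes that followed Tslp, Il1rl1 and Il1rap it then lay between 0.9 (Cry1 and Xpo5) and 0.97 (Mecr).

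Among themselves, Tslp and Il1rap had the highest correlation (r = 0.72 over 10 libraries), followed by Tslp and Il1rl1 (r = 0.61) and Il1rl1 and Il1rap (r = 0.41). Il33 ran the other way from Tslp (r = -0.43) and Il1rap (r = -0.44) and was near 0 with Il1rl1 (r = -0.07). Its correlation with Alb was 0.67, and that of Tslp with Alb was -0.32.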

How the data were processed

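Bulk RNA of 10 libraries of cultured ASPCs, 5 DMSO and 5 FICZ, was analysed. Per the labels, the authors aligned reads with STAR 2.7.7 to mm10. The counting program, annotation, strand setting and treatment of reads with several alignments are not given in the sources used here. The deposited values are raw counts by gene symbol, not normalized by the authors, and 5934 of 25229 rows had no count. Counts were tested with edgeR 4.0.16 in R 4.3.3 (TMM, filterByExpr, robust quasi-likelihood test, Benjamini-Hochberg over 14251 genes, threshold 0.05), without the replicate block. Log2 CPM used a prior count of 2, and CPM per kb divides by the GENCODE M21 exon length. The script was tested on simulated data. Alternatives were the replicate block, DESeq2 1.42.0, limma-voom (limma 3.58.1), other size factors and filters, Alb as a covariate, and leaving out each library or pair.

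Every pair of same-numbered libraries had a correlation of deviations above 0.1 (lowest 0.154), a pairing that comes from the data. Of each list, genes past the threshold or at an unadjusted p of 0.05 and the 3 most abundant were named. Others, named for counts near 0 or as markers, and the comparison of Il33 with Alb, were chosen after their values were seen. The members and lists were chosen with earlier results of these data known.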

Additional observations from a re-analysis of the deposited data

Results flagged for a closer look

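Each treatment group of 41 named genes was examined for a library that stands apart, by the gap of the highest or lowest library to its nearest neighbour as a share of the group's range on the log2 CPM scale. Of 82 groups, 3 had a share above 0.71, where chance gives about 1 in 20 groups, or 4.1. None involved Il33, Tslp, Il1rl1 or Il1rap. DMSO replicate 5 was highest for Il18bp (share 0.778), at 4.6 CPM beside 2.52 to 2.88 CPM in the others. FICZ replicate 3, also the highest FICZ library for Tslp and Il1rap, was highest for Tollip (share 0.835), at 148 CPM beside 121 to 125 CPM. DMSO replicate 4 was lowest for Ahrr (share 0.857), at 6.24 CPM beside 10.6 to 11.6 CPM.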

How the results depend on the processing

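Of 513 values recomputed under 27 alternatives, 501 stayed within the spread between replicates or, for counts, within 1.5 times, 12 moved and 0 reversed in a called value. For the 4 genes that spread was the within-group SD of log2 CPM, a lenient limit. For Tslp it was 0.586 against a log2 fold change of 0.54, so even 0.20 without FICZ replicate 3 counted as unmoved. Changes of sign of Il1rl1 and Il1rap also counted as unmoved. The number of genes past the threshold over all genes, 3 in edgeR without the block, was 8 with the replicate block, 16 in DESeq2, 26 in DESeq2 with the replicate block and 16 with Alb and the block. It ranged from 1 to 4 when 1 library was left out, with 1 without DMSO replicate 1 or 2 or FICZ replicate 1, 2 or 3, and from 1 to 8 when a pair was left out under the block, with 1 without replicate 1. The cause was not tested. The median log2 fold change of the MyD88 list ranged from 0.00, without DMSO replicate 1, to 0.07. No other count or median moved, and the block changed no call on the lists, where the count past the threshold was 0 with and without it.

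Tslp had the fewest counts of the 4 genes, with 75 to 296 per library, and 87.9% of its within-group sum of squares lay between replicate numbers. The Il33 difference was 0.35 on the log2 scale in size, and its value with Alb as a covariate, -0.19, is the smallest in size of all alternatives. The number of pairs limits these comparisons to the spread of 5 libraries per treatment.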
